A study of Mus musculus with 2 samples.

Results

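The cells described here are the 450 cells, of the 4315 tagged as d16, with the highest score over 8 genes of connective tissue cells. They were chosen by the mean of log(1 + reads per 10000 of a cell's reads) over Col3a1, Col1a1, Itih5, Apod, Ogn, Enpp2, Cygb and Foxc1, among 17720 cells of 5 populations in all. The study followed the return of primed mouse epiblast stem cells to a naive state when the kinase AMPK is activated. The d16 cells came from a culture of the primed line Oct4GIP, which carries an eGFP reporter driven by the promoter of Oct4 (Pou5f1). Cells of the line were plated on feeder fibroblasts from mouse embryos and, for 16 days, received AICAR, which activates AMPK, and the cytokine LIF. The other populations were naive cells of the Rex1-GFP line (naive), untreated Oct4GIP cells kept primed with FGF2 and Activin A (primed), Oct4GIP cells after 8 days of AICAR and LIF (d8), and d16 cells carried for 10 passages in the naive medium 2iL (d16+10p). Each population was tagged through antibodies to the surface proteins CD9 and CD63 and all were read in 1 pooled single-cell library, so there were no replicates. A population name below stands for the tag, and the source of single cells within a tagged culture was not tested. Intervals below are 95% intervals of counting error only and differences between groups of cells have no test.

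Mesenchymal cells such as fibroblasts make and remodel the extracellular matrix. They secrete fibrillar collagens (types I, III and V), which are hydroxylated and folded in the endoplasmic reticulum, trimmed outside the cell and cross-linked, together with small proteoglycans, elastic fibre proteins and basement membrane proteins. They arise from mesoderm and, in the head, from neural crest, and transcription factors such as Twist1, Tbx18, Osr1 and members of the Fox family are used to tell such cells of different origin apart.

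Promoter windows of 2 fibrillar collagen genes are shown because Col3a1 was the score gene with the highest level and Col1a2 the gene outside the score with the highest level among the leading genes. Each holds 250 bases before and 50 bases after a RefSeq transcript start on the plus strand of GRCm38.p6, chr1:45311288-45311587 for Col3a1 and chr6:4505368-4505667 for Col1a2. Capitals mark CCAAT or its reverse complement ATTGG, and TATAAA or its reverse complement TTTATA, on the strand shown.
Col3a1: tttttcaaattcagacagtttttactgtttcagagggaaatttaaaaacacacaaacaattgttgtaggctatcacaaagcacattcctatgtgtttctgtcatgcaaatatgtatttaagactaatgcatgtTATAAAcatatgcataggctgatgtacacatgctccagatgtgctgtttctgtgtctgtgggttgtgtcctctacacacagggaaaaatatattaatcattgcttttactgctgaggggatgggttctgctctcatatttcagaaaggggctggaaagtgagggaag
Col1a2: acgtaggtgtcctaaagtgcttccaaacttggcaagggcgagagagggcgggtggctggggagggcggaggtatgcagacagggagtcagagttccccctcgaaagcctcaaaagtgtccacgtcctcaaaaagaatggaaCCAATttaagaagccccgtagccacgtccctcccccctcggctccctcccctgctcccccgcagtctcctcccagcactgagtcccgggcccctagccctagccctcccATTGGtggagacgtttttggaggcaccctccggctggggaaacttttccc
The Col1a2 window held CCAAT on both strands and no TATAAA, and the Col3a1 window held TATAAA and no CCAAT. Of Col3a1, Col1a1 and the 21 other collagen genes that were at least 2-fold higher in the selected cells, 19 had a promoter in the RefSeq table, of which 9 (47.4%) held CCAAT on either strand, beside 41.1% of all 27025 genes in the table. TATAAA stood in 2 of the 19 (10.5%), beside 15.7% of all genes. These matches are descriptions of the letters only.

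The score split the d16 cells into a large group near 0 and a smaller broad group at high values, with a trough of 40 to 42 cells per 0.1 of score between 0.7 and 1.1. The cut of 1.37 lay inside the upper group and not in the trough. The last cell inside scored 1.36888 and the first outside 1.36763, the selected cells had a median of 1.74 and a highest score of 2.75, and the other d16 cells had a median of 0.207. All 450 had a read of at least 3 of the 8 score genes, and 20 had reads of all 8. The cells were shallower than the rest of d16, with 3212 to 49470 reads per cell and a median of 8189.5, beside a median of 10644, and with a median of 2661.5 beside 3363 detected genes. Mitochondrial genes took 7.87% of their reads and 7.72% of those of the other d16 cells.

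**Figure D1:**
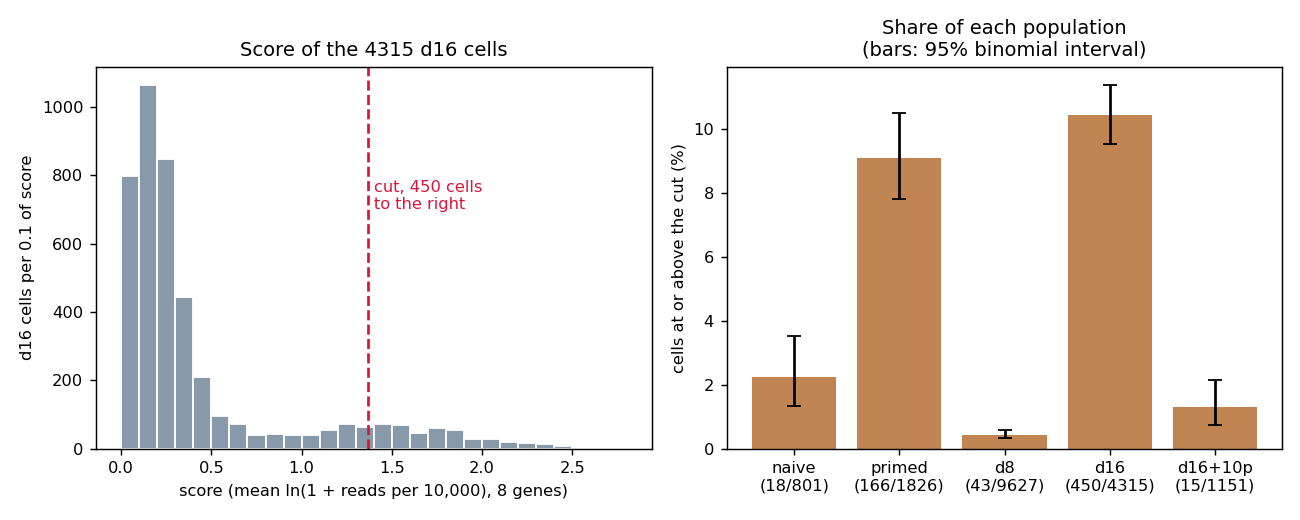
Left, number of d16 cells in each 0.1 of score, with the cut as a dashed line. Right, percent of the cells of each population at or above the same cut, with exact binomial 95% intervals. The 450 d16 cells right of the cut made up 10.4% of d16, and d8 had the lowest share, 0.447%.

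When all 17720 cells were clustered without the 8 score genes, 442 of the 450 cells fell in 1 of 18 clusters, cluster 6. That cluster held 1071 cells, of which 719 were d16, so that 277 of the 3865 other d16 cells lay in the cluster of the selected cells and are part of the reference below. Of the remaining 8 selected cells, 5 lay in cluster 3, the largest d16 cluster, and 1 each in clusters 13, 15 and 17. No selected cell lay in the 4 clusters with high Pou5f1, which held 29.5% of the d16 cells. The clusters were built from the same cells, so this is a description of how the selected cells sit together.

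The label of these cells was set beside 4 mesenchymal markers that the score did not use. These markers go with the score genes in the same cells, so they describe the label and are no independent check of it. Col1a2, Dcn, Lum and Pdgfra were each at least 2-fold higher than in the other d16 cells, with values given below. Markers of other cell types were summed over whole lists, in CPM, which is reads per 1000000 reads of a group of cells. The 15 macrophage genes summed to 338 CPM in the selected cells and 799 CPM in the other d16 cells, with Adgre1 at 0.921 and C1qa at 3.91 CPM but Lyz2 at 238 CPM in the selected cells. The 18 epithelial genes summed to 464 and 1018 CPM. The 17 neural progenitor genes summed to 1210.0 and 1910 CPM, and while Olig2 had 0 reads and Hes5 was at 1.38 CPM, Hes1 (506 CPM), Slc1a3 (259 CPM) and Nes (109 CPM) were well above 0 in the selected cells. The 18 endothelial genes summed higher in the selected cells, at 145 CPM beside 91.0 CPM, with Cldn5 and Robo4 at 0 reads. Tie1 was at 2.76 CPM, and Emcn and Ramp2 were at the levels given below. The 22 smooth muscle and pericyte genes also summed higher in the selected cells, at 3568 CPM beside 2038 CPM. The part of these lists in the results was not tested. The name mesenchymal therefore rests on matrix genes and surface receptors, while Vim, often used as a mesenchymal marker, was at 3448 CPM in the selected cells and 3882 CPM in the other d16 cells.

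The selected cells were set against the 3865 other d16 cells over 8222 genes that reached 20 CPM in 1 of the groups and had 50 reads or more in all, with the score genes left out. Of these, 563 genes (6.85%) were at least 2-fold higher and 675 (8.21%) at least 2-fold lower, on the scale of log2(CPM + 1), and the median log2 ratio was -0.14. Because the score picked cells rich in connective tissue genes, genes that go with it had to be higher, and the values describe the cells and test nothing. Genes below 20 CPM in the other d16 cells entered only through the selected cells. Counts of higher genes in the lists below are therefore partly set by this limit. For each list set against the other d16 cells, the shares over all genes are the 6.85% and 8.21% given above. For the 8 score genes themselves, the levels ran from 159 CPM for Cygb to 6573 CPM for Col3a1, beside 7.38 and 311 CPM in the other d16 cells.

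**Figure D2:**
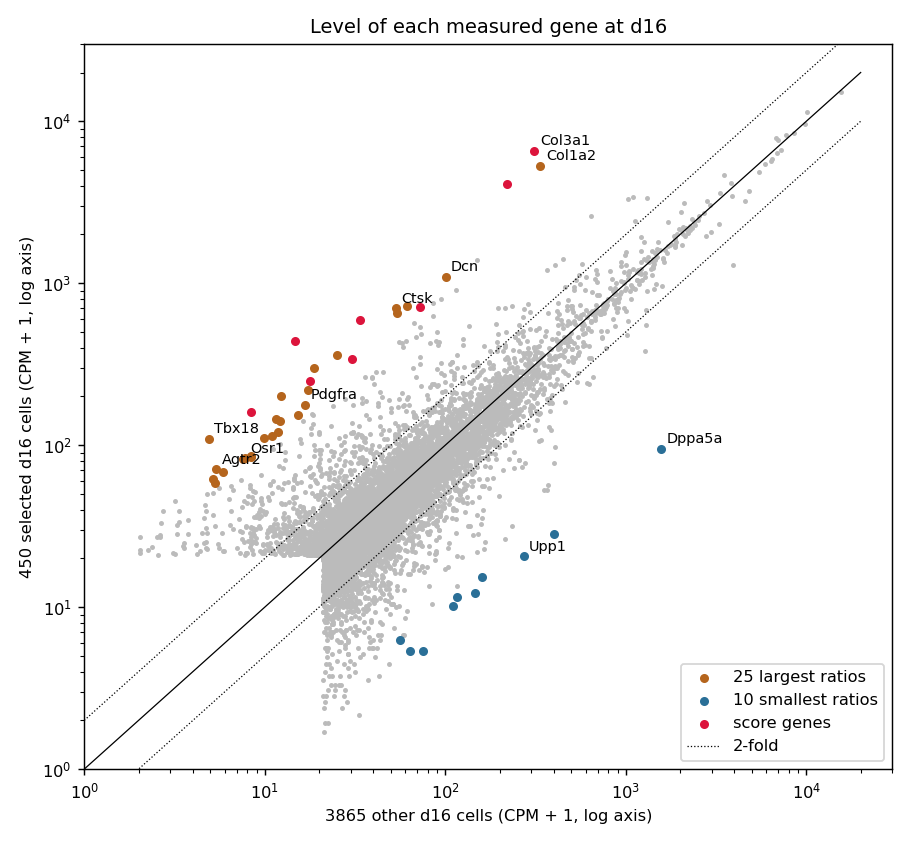
Level of each of the measured genes in the other d16 cells (horizontal, CPM + 1, log axis) and in the 450 selected d16 cells (vertical, CPM + 1, log axis). Score genes, the 25 genes with the largest ratios and the 10 with the smallest are coloured, and dotted lines mark 2-fold. Col1a2 lies beside the score gene Col3a1, and Dppa5a lies farthest below the diagonal among genes of high level.

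Among the 25 genes with the largest ratios, a fibrillar collagen gene had the highest level. Col1a2 (chr6:4505618-4541543), which encodes the second chain of type I collagen, ranged from 0 to 385 reads per 10000 over the selected cells, with a median of 39.4, and from 0 to 162 with a median of 1.24 over the other d16 cells. The ranges overlap, but the medians do not lie close. Summed, it was at 5302 CPM (5234 to 5371) and 336 CPM, a log2 ratio of 3.98. Col5a2, of the type V collagen that regulates fibril width, was at 727 and 60.5 CPM (log2 ratio 3.57).

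The 3 chains of type VI collagen, which forms beaded filaments around cells, had similar ratios. Col6a3 was at 300.4 and 17.8 CPM, Col6a2 at 358 and 24.2 CPM (log2 ratio 3.83), and Col6a1 at 655 and 53.0 CPM (3.60). The basement membrane collagens Col4a1 (1381 and 149 CPM, 3.20) and Col4a2 (794 and 94.0 CPM, 3.07) were high as well. Of 33 collagen genes outside the score, 22 were measured and 21 were at least 2-fold higher, with a median log2 ratio of 2.75 beside -0.14 over all genes. The exception was the cartilage collagen Col2a1, at 32.5 CPM beside 54.7 CPM. Col1a2 was read in 99.4% of the selected cells after every cell was thinned to 5000 reads (361 of the 450 were deep enough), beside 51.1% of the other d16 cells and 42.5% of the d16 cells of the Pou5f1-high clusters. The last share shows the level at which collagen reads appear in cells of another kind, and Col3a1 had a similar one there, 34.4%, beside 99.7% of the selected cells.

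Genes for making collagen were higher by less than the collagens. Serpinh1, the collagen chaperone, was at 1301 and 406 CPM (log2 ratio 1.68), the prolyl hydroxylase gene P4ha1 at 292 and 88.5 CPM (1.71), P4ha2 at 170.4 and 53.6 CPM (1.65), and Pcolce, which enhances removal of the procollagen tail, at 315 and 71.0 CPM (2.13). Of 23 measured genes of this list, 14 were at least 2-fold higher, P4ha3 was lower (9.21 and 25.7 CPM), and the median was 1.34. Among the cross-linking enzymes Loxl2 was at 689.5 and 272 CPM (1.34), whereas Lox was at 99.5 and 89.0 CPM (0.16).

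Among the small leucine-rich proteoglycans, which bind collagen fibrils, Dcn ranged from 0 to 116 reads per 10000 with a median of 5.88 over the selected cells, and from 0 to 74.5 with a median of 0 over the other d16 cells. Summed, Dcn was at 1097 and 99.4 CPM (log2 ratio 3.45), Lum at 57.6 and 4.29 CPM (3.47), Aspn at 33.6 and 2.74 CPM (3.21) and Bgn at 539.9 and 134 CPM (2.00). Prelp went the other way, at 32.5 and 72.1 CPM (-1.13). Of 33 measured genes of elastic fibres and matrix glycoproteins, 24 were at least 2-fold higher and none at least 2-fold lower, with a median of 1.72. Mfap4 (154 and 17.4 CPM, 3.08), the fibrillins Fbn1 (283 and 40.3 CPM, 2.78) and Fbn2 (427 and 56.9 CPM, 2.89), and Fbln1 (570.0 and 65.9 CPM, 3.09) were elastic fibre genes among them. Sparc, a matricellular protein, had the highest level of the list (3393 and 1098 CPM, 1.63). Thbs1 (237 and 236 CPM) and Fbln2 (204 and 192 CPM) were at like levels in both groups. The laminin chains Lama1 (113 and 9.98 CPM, 3.37) and Lama4 (119.7 and 10.8 CPM, 3.35) were among the 25 genes with the largest ratios.

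**Figure D3:**
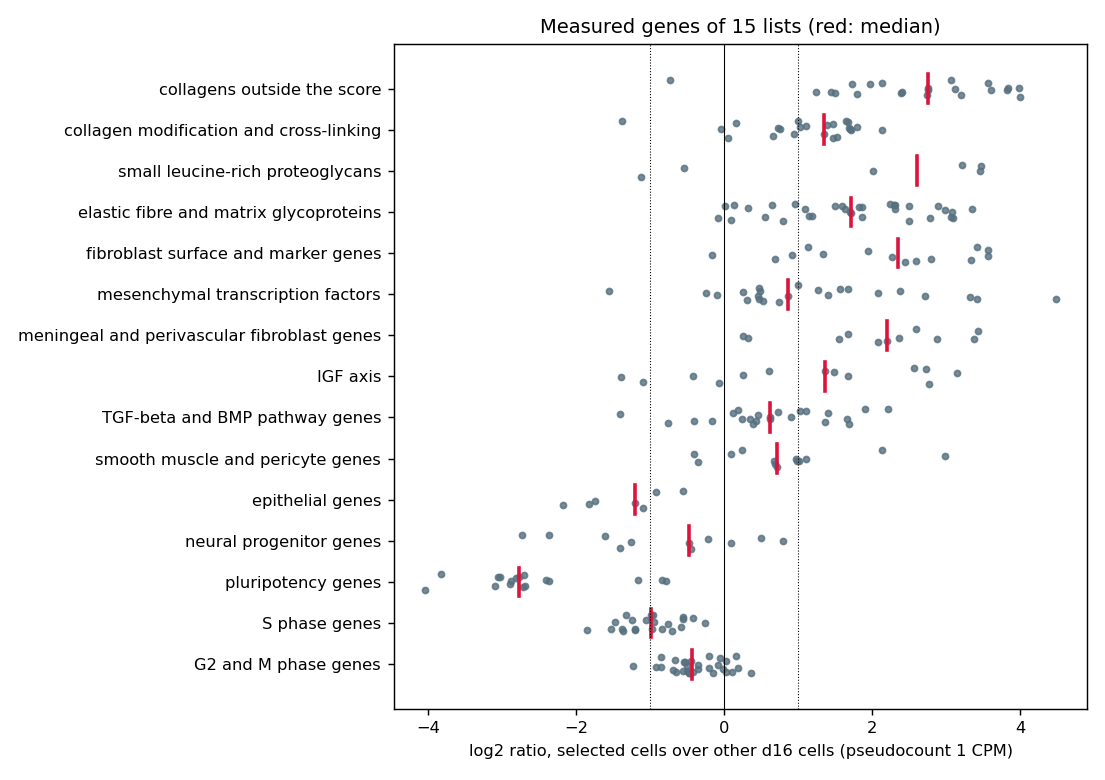
Log2 ratio of selected cells over other d16 cells for each measured gene of 15 lists, with the median of each list in red and dotted lines at 2-fold. The medians run from 2.75 for collagens outside the score to -2.78 for pluripotency genes.

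Among transcription factors, Tbx18 (chr9:87702800-87731260) had the largest ratio of the genes outside the score, at 108 CPM (98.9 to 119) beside 3.90 CPM, a log2 ratio of 4.48. It was read in 23.8% of thinned selected cells (19.5 to 28.6) and in 1.52% of thinned other d16 cells, and its highest level in a selected cell was 15.4 reads per 10000 with a median of 0. Foxf2 was at 120.2 and 11.1 CPM (3.32), Osr1 at 82.2 and 6.80 CPM (3.42), Twist1 at 258 and 38.5 CPM (2.71), Snai1 at 44.4 and 7.75 CPM (2.38), and Foxd1 at 60.3 and 13.5 CPM (2.08). Of 23 measured mesenchymal transcription factors, 10 were at least 2-fold higher, beside 6.85% of all measured genes. Msx1 was lower (14.0 and 43.4 CPM), and the median of the list was 0.86. Tbx18, Foxf2, Osr1, Snai1 and Foxd1 were below 20 CPM in the other d16 cells and were measured through the selected cells alone. Over 14 alternative settings this median ran from 0.44 to 1.00. Zeb1, Zeb2, Klf4 and Runx1 differed by less than 2-fold. Hox genes, whose set reports position along the body axis, were not measured: 0 of 39 passed the level limit, the highest was Hoxb9 at 8.29 CPM, and 9 had 0 reads.

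Genes of fibroblasts around the brain and vessels were on a list of 22, of which 11 were measured and 9 were at least 2-fold higher, with a median of 2.20, which was 0.74 with no limit on low levels. Aldh1a2, which makes retinoic acid, was at 81.3 and 6.62 CPM (log2 ratio 3.43), Zic1 at 185 and 35.2 CPM (2.36), the chemokine gene Cxcl12 at 440.4 and 59.2 CPM (2.87), and Slc6a13 at 30.8 and 4.29 CPM (2.59). The meningeal transporters Slc22a6 and Slc47a1 had 1 and 0 reads in the selected cells, and Ptgds was at 4.37 CPM. Other retinoid genes went with Aldh1a2: Rarb, a receptor induced by retinoic acid, was at 135 and 17.5 CPM (2.87), Stra6, a retinol transporter, at 57.8 and 11.7 CPM (2.21), and Cyp26b1, which degrades retinoic acid, at 93.2 and 10.0 CPM (3.09). Of 12 measured retinoid genes, 6 were at least 2-fold higher and none lower, beside 6.85% and 8.21% of all measured genes.

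Surface and secreted genes of fibroblasts included Pdgfra, the PDGF receptor of fibroblasts, at 177 CPM (165 to 190.2) and 15.8 CPM (3.41), Fap at 67.7 and 4.84 CPM (3.56), Scara5 at 152 and 14.2 CPM (3.33) and Mgp at 401 and 57.1 CPM (2.79). Of 14 measured genes of this list, 11 were at least 2-fold higher and none lower, with a median of 2.35, which was 1.23 with no limit on low levels. Ctsk, a collagen-cleaving cathepsin, was at 701 and 52.3 CPM (3.72), and Mmp2 at 629 and 84.5 CPM (2.88), while Mmp15 was lower (8.06 and 23.3 CPM). Of 19 measured matrix proteases and inhibitors, 12 were at least 2-fold higher. Of 10 measured complement genes, 5 were at least 2-fold higher, with a median of 0.97, which was 0.18 with no limit on low levels. Beside these counts, 6.85% of all measured genes were at least 2-fold higher. The angiotensin receptor gene Agtr2 was at 70.2 and 4.37 CPM (3.73), the chemokine gene Ccl11 at 111 and 8.90 CPM (3.49), and the integrin gene Itga8 at 217 and 16.4 CPM (3.64).

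Growth factor genes were led by the IGF axis. Igf2 was at 3357 and 1302 CPM (log2 ratio 1.37) and Igfbp5 at 3302 and 1034 CPM (1.67), both among the most abundant transcripts of the cells, with Igfbp4 (758 and 84.6 CPM, 3.15), Igfbp3 (486 and 72.5 CPM, 2.73) and Igf1 (236 and 39.1 CPM, 2.57) at larger ratios. Of 13 measured genes of the axis, 7 were at least 2-fold higher and 2, H19 and Igf2bp1, at least 2-fold lower. The median of 1.37 was 0.60 with no limit on low levels. Of 20 measured imprinted genes, 5 were at least 2-fold higher, among them Mest (175 and 57.9 CPM) and Plagl1 (326 and 148 CPM), and 4 were lower, with a median of 0.12. Of 23 measured genes of the TGF-beta and BMP pathways, 8 were at least 2-fold higher, among them Tgfbr3 (93.0 and 19.2 CPM, 2.22), and Nog, a BMP inhibitor, was lower (11.7 and 32.8 CPM). Of 11 measured Wnt genes 3 were higher, of which Nkd2 (59.4 and 10.1 CPM) had the largest ratio, and Rspo2 was lower (9.44 and 50.4 CPM). Of 18 measured chemokine and cytokine genes, 7 were at least 2-fold higher, among them Ptn (1202 and 363 CPM, 1.73). No AMPK subunit or upstream kinase (6 measured) and no gene of the LIF pathway (5 measured) differed by 2-fold. Over all measured genes 6.85% were at least 2-fold higher and 8.21% lower, so lists this short would hold few such genes at those shares. The receptor subunit Il6st was at 173 and 93.9 CPM.

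Markers of related cell types were mixed. Of 13 measured smooth muscle and pericyte genes, 4 were at least 2-fold higher, among them Actg2 (51.8 and 5.71 CPM, 2.98) and Rgs4 (87.3 and 19.2 CPM, 2.13), while Acta2 (342 and 213 CPM, 0.68) and Tagln (184 and 157 CPM, 0.23) were not. Actg2 was read in 5.82% of thinned selected cells (3.64 to 8.75), and its level rested on those cells. No cartilage or bone gene (4 measured) was at least 2-fold higher, beside 6.85% of all measured genes, and Sox9 was at 83.8 and 140.4 CPM. Of 5 measured fat cell genes 1, Cebpb, was at least 2-fold higher, and Adipoq was at 0.691 CPM. Emcn, an endothelial marker, was at 32.2 and 1.65 CPM (3.65) and Cdh5 at 11.5 and 0.738 CPM, without Cldn5. Of the 2 measured endothelial genes, Ramp2 was at 53.4 and 28.5 CPM (0.88). Of 9 measured genes of MHC class I and antigen presentation, the immunoproteasome subunit gene Psmb8 was at least 2-fold higher (38.7 and 17.4 CPM, 1.11), while the class I gene H2-D1 was at 54.8 and 90.9 CPM and H2-K1 at 32.5 and 32.4 CPM.

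Genes of pluripotent and germ cells had the smallest ratios. Dppa5a (chr9:78367052-78368199), a gene of naive cells, was at 94.2 CPM (85.3 to 104) and 1564 CPM, a log2 ratio of -4.04, and 15 of 17 measured pluripotency genes were at least 2-fold lower, with a median of -2.78. Pou5f1 was at 24.2 and 164 CPM (-2.72), Nanog at 30.6 and 235 CPM (-2.90) and Zfp42 at 25.3 and 214 CPM (-3.03). The germ cell genes Dazl (27.2 and 397 CPM, -3.82), Hormad1 (4.37 and 73.9 CPM, -3.80) and Stra8 (14.3 and 158 CPM, -3.38) were among the 10 smallest ratios. In the other d16 cells of the Pou5f1-high clusters Dppa5a was at 3664 CPM, and in those outside these clusters and outside cluster 6 it was at 175 CPM. Against the d16 cells outside those clusters, the median of the pluripotency genes was -0.87. Dppa5a was read in 32.7% of thinned selected cells and in 29.4% of thinned d8 cells of cluster 0, which had a Pou5f1 level of 25.3 CPM. In the epithelial list 5 of 7 measured genes were at least 2-fold lower, with Cdh1 at 18.4 and 87.2 CPM (-2.18). In the neural progenitor list 5 of 11 were lower, with Fabp7 at 52.0 and 350.3 CPM (-2.73), and in the neuron list 4 of 6. Of all measured genes 8.21% were at least 2-fold lower.

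Cell cycle genes depended on which d16 cells served as reference. Of 30 G2 and M phase genes 29 differed by less than 2-fold and Hmgb2 was at least 2-fold lower, with a median of -0.44. Against the d16 cells outside the Pou5f1-high clusters the median was 0.30, the opposite sign. Mki67 was at 109 CPM in the selected cells, 97.7 CPM in all other d16 cells and 73.6 CPM in d16 cells outside cluster 6 and outside the Pou5f1-high clusters. At least 5 of the 30 genes were read in 121 of 361 thinned selected cells (33.5%, 28.7 to 38.6), in 58.0% of the other d16 cells and in 96.3% of those of the Pou5f1-high clusters. The S phase median was -0.98, with 10 of 22 measured genes at least 2-fold lower, and -0.09 against d16 cells outside the Pou5f1-high clusters. Of 16 measured cell cycle inhibitors 2 were at least 2-fold higher, and Cdkn1a was at 801 and 834 CPM. Immediate early and stress genes (19 measured) had 2 higher and 4 lower, beside 6.85% and 8.21% of all measured genes.

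Within the selected cells, collagen and Tbx18 levels were lower further down the ranking. Col1a2 was at 6547, 5351 and 4261 CPM in ranks 1 to 150, 151 to 300 and 301 to 450, and at 2746 CPM in ranks 451 to 600, just outside. Tbx18 was at 160, 110, 65.9 and 33.2 CPM in the same bands. In cluster 6 lay 100%, 98.7%, 96%, 88% and 58% of the cells of ranks 1 to 150, 151 to 300, 301 to 450, 451 to 600 and 601 to 750. The G2 and M phase genes went the other way and summed to 1839, 2812 and 3137 CPM in the first 3 bands, and fibroblast surface genes summed to 5324, 6004 and 5928 CPM. The fibroblast surface sum did not fall at the cut. It was at 5835, 5847 and 6194 CPM in ranks 451 to 600, 601 to 750 and 751 to 1000, and at 4438 CPM in the remaining d16 cells. Pluripotency genes summed to 488 CPM in ranks 301 to 450 and 920.2 CPM in ranks 451 to 600. Over the 450 cells the score and the summed collagens outside it had a Pearson correlation of 0.23, the score and the reads of a cell -0.12, and the score and the summed G2 and M genes -0.16, all from cells of 1 library that differ in depth.

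**Figure D4:**
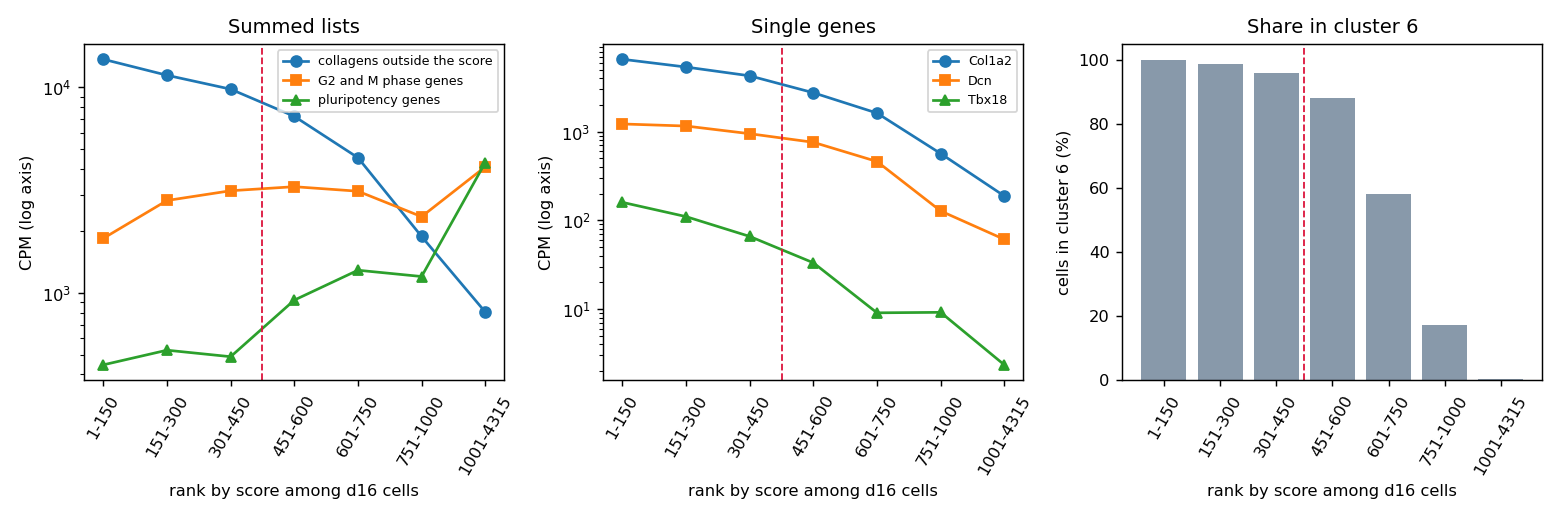
Summed CPM of 3 gene lists (left, log axis) and CPM of 3 genes (middle, log axis) in bands of d16 cells ranked by score, and the percent of each band in cluster 6 (right). The dashed line is the cut after rank 450. Summed collagens were at 9797 CPM in ranks 301 to 450 and 7225 CPM in ranks 451 to 600.

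Cells at or above the same cut occurred under every tag, 692 in all. They were 166 of 1826 primed cells (9.09%, 7.81 to 10.5), 43 of 9627 d8 cells (0.447%, 0.323 to 0.601), 18 of 801 naive cells (2.25%, 1.34 to 3.53) and 15 of 1151 d16+10p cells (1.30%, 0.731 to 2.14). The shares of d16 (10.4%, 9.53 to 11.4) and primed have overlapping intervals, and d8 was the lowest. The primed tag held 1826 cells although 500 were loaded, and the d16 tag 4315 although 9000 were loaded. Primed-tagged cells, 1826 of all 17720, also made up 5.89% of cluster 3 and 3.99% of cluster 5, which were mostly d16, and 21.9% of cluster 6. Their share was 21.0% in cluster 2, which was mostly d8, and 25.6% in cluster 13. No cell barcode was shared between tags. Whether tags were assigned to the wrong population in part of these cells was not tested.

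Of the 4 groups compared over all genes, the 166 primed-tagged cells at or above the cut had the fewest genes past 2-fold. The paper took cells without Oct4 under the primed tag to be feeder fibroblasts. Of these 166 cells, 161 lay in cluster 6, and their source was not tested. Over 7579 measured genes, 36 (0.475%) were at least 2-fold higher in the selected d16 cells and 40 (0.528%) at least 2-fold lower, with a median log2 ratio of -0.0047. Both groups were picked by the same 8 genes, so likeness in genes that go with them is built in. Col1a2 was at 5302 and 5326 CPM, Tbx18 at 108 and 107 CPM, and Pou5f1 at 24.2 and 23.6 CPM. Among genes of at least 50 CPM and 100 reads, the largest ratios were those of Actg2 (51.8 and 5.54 CPM, 3.01), Pcp4l1 (72.3 and 33.3 CPM, 1.10) and Acta2 (342 and 176 CPM, 0.95), and the smallest were those of Sprr2a2 (1.61 and 73.5 CPM, -4.83), Trf (19.3 and 72.1 CPM, -1.84), Mmp13 (18.2 and 61.7 CPM, -1.71) and Lyz2 (238 and 638 CPM, -1.42). Lyz2 is a macrophage gene, and the macrophage list summed to 338 CPM in the selected d16 cells and 814 CPM in these primed cells. Its part in the result was not tested.

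Against the 43 d8 cells at or above the cut more genes passed 2-fold. In the selected d16 cells 322 of 7823 genes (4.12%) were at least 2-fold higher and 311 (3.98%) at least 2-fold lower. The d8 cells held 589779 reads in all and the 166 primed cells 1443146, so counting error was larger at d8. With a pseudocount of 10 CPM, 108 genes were higher and 124 lower than at d8, beside 6 and 15 for the primed cells. Col1a2 was at 3979 CPM and Tbx18 at 103 CPM in the d8 cells, while Osr1 was at 33.9 CPM beside 82.2 CPM (log2 ratio 1.25) and Igfbp3 at 141 CPM beside 486 CPM (1.78). G2 and M phase genes were higher in the selected d16 cells, 13 of 30 at least 2-fold, with a median of 0.90. Among the 10 smallest ratios were the macrophage genes Tyrobp (10.4 and 169.6 CPM, -3.91) and Lyz2 (238 and 2603 CPM, -3.44). The macrophage list summed to 3323 CPM in these d8 cells. The part of macrophage reads in this comparison was not tested.

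A d8 cluster also held reads of matrix genes. Cluster 0, with 2172 d8 cells and no selected cell, had Dcn at 597 CPM and Sparc at 3323 CPM but Col3a1 at 156 CPM, and its d8 cells had a median score of 0.269. Against those cells 941 of 7806 genes (12.1%) were at least 2-fold higher in the selected d16 cells and 643 (8.24%) at least 2-fold lower. Of 23 measured collagens 18 were higher, with a median of 2.28. Among the 10 largest ratios were Tril (141 and 2.65 CPM, 5.28), Scara5 (152 and 3.07 CPM, 5.23) and Lama1 (113 and 3.09 CPM, 4.80). Igf2 was at 3357 and 205 CPM (4.03). The cluster 0 cells were higher in Lox (99.5 and 1372 CPM, -3.77), Thbs1 (237 and 2233 CPM, -3.23), Prrx1 (131 and 662 CPM, -2.33), Acta2 (342 and 799 CPM, -1.22) and Crabp1 (90.2 and 1498 CPM, -4.04), and in Hoxb9 (8.29 and 79.0 CPM) and Hoxc8 (4.37 and 48.5 CPM). The 4 Hox genes measured here passed the level limit through cluster 0 alone. G2 and M phase genes were higher in the selected cells, 29 of 30 at least 2-fold, with a median of 1.70.

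Reads of Y-linked genes parted these cells from cluster 0. Ddx3y (chrY:1260715-1286628) was at 6.91 CPM (4.66 to 9.86, 30 reads) in the selected cells, 7.28 CPM in the other d16 cells and 7.62 CPM in the primed cells at or above the cut, beside 98.9 CPM in the d8 cells of cluster 0 and 58.2 CPM in naive cells. Eif2s3y was at 2.53 CPM in the selected cells and 21.3 CPM in cluster 0. Xist, the RNA of the inactive X chromosome, was at 439.7 CPM in the selected cells and 139 CPM in cluster 0. In the primed cells at or above the cut it was at 495 CPM. The other d16 cells were at 284 CPM, which joined unlike parts. Xist was at 99.6 CPM in those of the Pou5f1-high clusters. It was at 410 CPM in those outside these clusters and outside the main cluster of the selected cells. The Y-linked levels of the selected cells lay at those of d16 and primed cells, and the sources of the cells were not tested further.

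**Figure D5:**
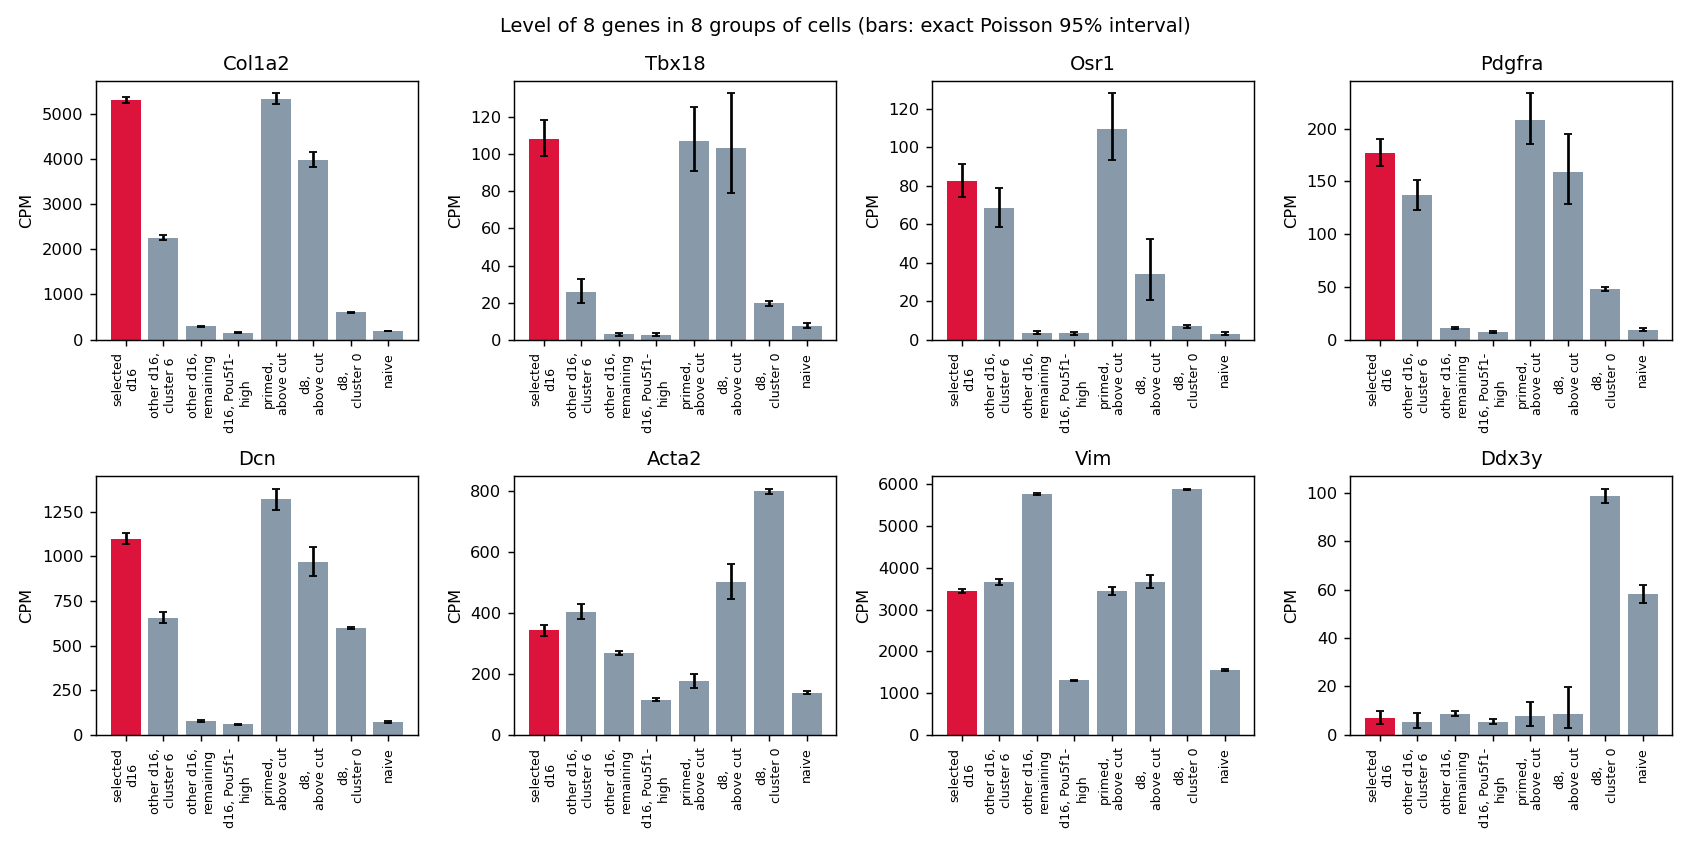
Level of 8 genes (CPM, axes from 0, each with its own scale) in 8 groups of cells, with exact Poisson 95% intervals. Col1a2 and Tbx18 were alike in the selected d16 cells (red) and the primed cells above the cut, and Ddx3y was at 98.9 CPM in the d8 cells of cluster 0 and at 6.91 CPM in the selected cells.

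The genes for the proteins that the tagging antibodies bind were Cd63 at 1497 and 987 CPM and Cd9 at 181 and 391 CPM in the selected and other d16 cells. A doublet caller marked 2 of the 4315 d16 cells, too few to be of use. Of the 204 d16 cells with its highest scores, 20 were selected cells (4.44% of 450).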

How the data were processed

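Single cells of 5 tagged populations were captured on BD Rhapsody and amplified by TAS-Seq. The deposited counts are whole reads for each symbol in each cell. The authors trimmed adapters with cutadapt 2.10, mapped to GRCm38 cDNA and ncRNA with Bowtie2 2.3.4.1, dropped barcodes below the knee, assigned tags and removed cells with close tag counts as doublets. No collapsing of molecules is described, so reads are not independent molecules and intervals cover counting error only. Near-identical genes may share reads. The table held 33963 genes, 17720 cells and 307121033 reads, with 3179 to 111822 reads per cell.

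Reads of a group were summed and scaled to 1000000 (CPM). Ratios are log2 with a pseudocount of 1 CPM. CPM have exact Poisson, shares exact (Clopper-Pearson) and ratios binomial intervals at 95%. Clusters came from Seurat 5.3.0, run under R 4.3.3 (2000 variable genes, 56 components, 50 neighbours, resolution 0.8) without score genes. Detection shares use 5000 randomly drawn reads per cell. Doublets were scored by Scrublet in scanpy 1.11.5. TMM factors came from edgeR 4.0.16. Genes were named as the 25 largest and 10 smallest ratios against other d16 cells, and 10 each way in the other comparisons (at least 50 CPM and 100 reads), and from 35 lists, and some of them are not reported here. The members and lists were chosen with earlier results of these data known, and the comparisons with primed cells and with cluster 0 were added after seeing the data. Gene positions and promoters are from RefSeq (GRCm38.p6), matched by symbol. Intervals were tried on simulated sums drawn with the counting error that they assume. That trial cannot show how well they hold for reads of cells that vary. Each population was 1 sample, so no test was made.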

Additional observations from a re-analysis of the deposited data

Results flagged for a closer look

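The contrast of cells at or above the cut against cells below it went opposite ways at d16 and d8 for 2 listed genes. Prelp, a matrix proteoglycan, had a log2 ratio of -1.13 at d16 (32.5 and 72.1 CPM) and 2.02 at d8 (39.0 and 8.87 CPM). Alpl, an alkaline phosphatase, had a log2 ratio of -2.22 at d16 (15.4 and 75.4 CPM) and 1.56 at d8 (28.8 and 9.12 CPM). In both genes the level above the cut was higher at d8, and the level below the cut was higher at d16. The d8 cells above the cut held 589779 reads in all, so these low levels are imprecise there and are given without intervals. Each time point was 1 sample with 43 cells above the cut at d8, and the difference between time points was not tested.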

How the results depend on the processing

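Each population was 1 sample, so no replicate could be left out and no spread between replicates was available. No paired analysis was possible because no replicate numbers were given. Over 83 results and 14 settings, 698 of 1105 values stayed within their interval or within 1.5 times, 404 moved and 3 changed sign from a value whose interval excluded 0. Those 3 were the medians of endothelial genes (-0.030) and of Y-linked genes with Xist (-0.067) with no minimum level, and of G2 and M phase genes (0.30) against d16 cells outside the Pou5f1-high clusters. For a list median, the interval joined the medians of its genes' lower and upper bounds. It is therefore not a counting interval of the median, and these counts depend on it. The endothelial median of 2.27 lay outside its own interval, 2.29 to 2.90. Another 18 values changed sign from a value whose interval held 0: the neural crest median (0.14) under 12 settings, the ratio of Ddx3y (-0.067) under 3, the imprinted median (0.12) under 2 and that of cell cycle inhibitors (-0.089) under 1. Under TMM scaling the median of all genes was -0.00054 in place of -0.14 and that of collagens 2.89.

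With 300 cells, 74 genes were higher and 69 lower than in primed cells above the cut, 733 were higher than in d8 cells above it, the collagen median was 2.43, and the shares above the cut were 7.39% of primed and 0.239% of d8. With 600 cells these were 195 genes against d8, 11.3% and 0.602%. Without Col3a1 and Col1a1 in the score the medians were 2.31 for collagens, 1.63 for glycoproteins and 0.65 for transcription factors, and 381 cells (84.7%) were shared. With the mean of CPM per cell they were 2.57, 1.64 and 0.61, with 58 genes higher and 72 lower than in primed cells. With a pseudocount of 10 CPM, 400 genes were lower than in other d16 cells, 6 higher and 15 lower than in primed, 108 and 124 than in d8, and medians were 2.14 for collagens, 1.62 for glycoproteins and -1.93 for pluripotency. With no minimum level, genes higher and lower were 969 and 2350 against other d16, 1328 and 1036 against primed, 3090 and 2262 against d8, and 2078 and 1268 against cluster 0, and medians were 2.12 for collagens and 0.47 for transcription factors. The same setting gave the lowest medians for fibroblast surface (1.23), meningeal (0.74), IGF axis (0.60) and complement genes (0.18). Against d16 cells outside the Pou5f1-high clusters, medians were 2.34 for collagens, 1.33 for glycoproteins, 0.44 for transcription factors, -0.87 for pluripotency and -0.088 for S phase. With cells of few or very many detected genes left out (341 selected cells), 62 genes were higher than in primed cells. Chosen after seeing the data, a reference outside cluster 6 gave 3.06 for collagens and 1.90 for glycoproteins, and all 719 d16 cells of cluster 6 as members gave -0.20 for G2 and M phase. The causes were not tested. With 43 d8 cells above the cut, low genes there are the least precise.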
